A study of Apocynum venetum with 18 samples.

Results

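The step from 6 h to 12 h in salt was studied in leaves of wild Apocynum venetum, a salt-tolerant shrub grown for its bast fibre, by comparing the 3 libraries labelled 12 h with the 3 labelled 6 h. All assembled transcripts that passed a filter on low counts were included, which gave 45222 of the 53545 in the table (84.5%), in 6 of the series' 18 libraries. Per the labels, every group, 0 h included, was kept in nutrient solution containing 300 mmol/L NaCl, and the groups differ by sampling time alone (0 h and 2 h, then 6 h and 12 h, and lastly 24 h and 48 h, 3 libraries each). The design text speaks of seedlings and of a control without salt, which none of the labels mentions, and plant age is not given. The labels tie no library to a plant of its own, so p-values rest on library-to-library spread, which may be technical. Hours in salt cannot be told apart from hour of the day, and in leaf RNA a change in the share of a cell type cannot be told apart from a change within its cells.

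Salt around the root first makes water harder to take up and later loads the leaf with sodium and chloride. Leaves are known to answer with hormone signalling, synthesis of compatible solutes, transport of ions into the vacuole and slower growth, and transcript levels shift over hours as these processes start and settle. The comparison of 12 h with 6 h asks which leaf transcripts were still moving between the early and the later part of the first day. Each transcript was built from the reads without a genome and carries an ID but no usable gene name, so transcripts are described here by level, length, direction and course, and the leaf label could not be checked against marker genes.

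The 6 libraries held 21094179 to 22748646 estimated counts, so depth was within a narrow range. Levels are given as CPM, counts scaled to a common library size with TMM, a method that corrects for differences in library composition. They are not corrected for transcript length. One library stood apart from its own group. Among the 14446 transcripts with a mean of at least 10 CPM over all 18 libraries, 6 h replicate 1 differed from 6 h replicates 2 and 3 by a median of 0.396 and 0.35 on the log2 scale, against 0.22 between replicates 2 and 3. The 3 pairs within 12 h lay between 0.213 and 0.272. The 9 pairs that joined a 6 h with a 12 h library lay between 0.257 and 0.469, so the 2 times overlapped with the spread inside them. The closest of these 9 pairs, 6 h replicate 2 with 12 h replicate 1, was nearer than 6 h replicate 1 was to either library of its own time. The counts of calls and of steady transcripts are therefore given with and without 6 h replicate 1. The 0 h and 2 h libraries were also compared, with each other only, and those of 24 h and 48 h were not compared in this way. Among the 0 h and 2 h libraries, 2 were nearer to the other time than to their own. By the same measure the library labelled 0 h replicate 2 differed on average by 0.299 from the 2 h libraries and by 0.417 from the other 0 h libraries, and that labelled 2 h replicate 2 by 0.356 from 0 h and by 0.368 from its own time. The step's calls and the comparison of 2 h with 0 h are also given without them.

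Few transcripts passed the test and more of them fell than rose. With edgeR's quasi-likelihood test, 30 transcripts rose (0.0663% of those tested) and 79 fell (0.175%), 109 in all (0.241%). A transcript was called when its Benjamini-Hochberg adjusted p was under 0.05 and its log2 change at least 1 in size, that is at least 2-fold. The rises had a median log2 change of 2.25 and the falls one of -1.79, while the median over all transcripts tested was 0.02. Of the 109, 56 changed by at least 2 on the log2 scale and 8 rises and 8 falls by at least 4. No transcript called had overlapping groups, but neither did 22.8% of all those tested (11.9% higher and 10.9% lower at 12 h). At an unadjusted p under 0.05, 2741 transcripts (6.06%) were higher and 2982 (6.59%) lower at 12 h, together 12.7% of those tested.

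The number of calls moved with the test and with single libraries. Without 6 h replicate 1 there were 43 calls, 10 rises and 33 falls, and 40 of them were among the 109. When 6 h replicate 2 was left out there were 68 calls, and when 6 h replicate 3 was, 2. Leaving out 12 h replicate 1, 2 or 3 gave 10, 7 or 16 calls. Rises outnumbered falls in the latter pair of these fits and in that without 6 h replicate 3. Of the 109, 67 were called in at least 1 of these 6 fits and 2 in all of them. The fitted change stayed at least 2-fold in every fit for 102, whose direction was already fixed by groups that do not overlap. The median change of the 30 rises was 2.18 to 2.46 and that of the 79 falls -1.98 to -1.69. The DESeq2 test called 1236 transcripts (2.73%), 505 higher and 731 lower, with 108 of the 109 among them. Limma on voom values called 159, with 79 of the 109 among them, 18 of the 30 rises and 61 of the 79 falls. With only the transcripts that reached 10 CPM in 3 libraries tested, 17495 in number, 86 rose and 230 fell. When 0 h replicate 2 and 2 h replicate 2 were left out of the shared estimate of spread, a choice made after seeing the data, 189 rose and 321 fell.

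**Figure D1:**
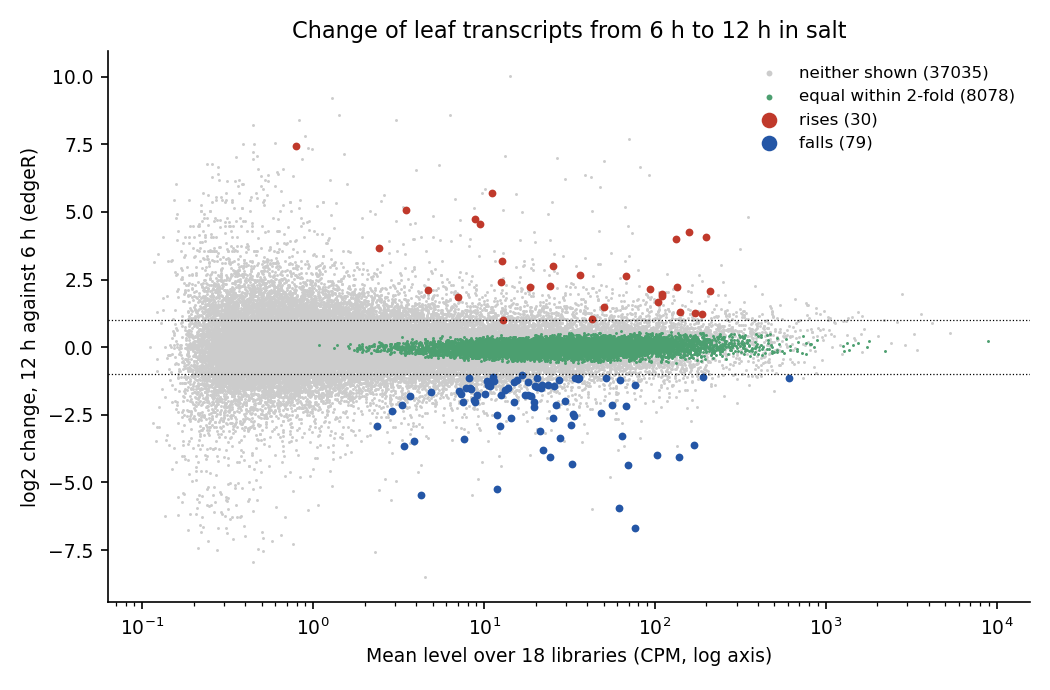
Each point is 1 of 45222 transcripts, with its mean over all 18 libraries (CPM, log axis) and its log2 change from 6 h to 12 h; dotted lines mark a 2-fold change. The 30 rises (red) and 79 falls (blue) lie outside the 8078 transcripts shown to be equal within 2-fold (green), and grey points are the 37035 that were neither called nor shown to be equal.

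The rise with the largest change among those of at least 10 CPM in every 12 h library was TRINITY_DN14405_c0_g1_i1_7, of 1795 nucleotides. It stood at 0.685, 6.77 and 1.81 CPM in the 6 h libraries and at 70.5, 53.4 and 29.9 CPM in the 12 h libraries. The groups did not overlap, and the lowest 6 h value was that of replicate 1. Its log2 change was 4.06 (SE 0.63, edgeR adjusted p = 0.019), and it was 3.58 to 5.36 with each library left out. By edgeR it was no longer called when 6 h replicate 3 (adjusted p = 0.12), 12 h replicate 1 (adjusted p = 0.058) or 12 h replicate 2 (adjusted p = 0.083) was left out, nor in a fit of only the 6 libraries (adjusted p = 0.093). After the 12 h mean of 51.3 CPM ± 20.4 (SD, n = 3) its mean was 394 ± 78.0 at 24 h and then 730 ± 318 at 48 h. Before the step it had stood at 5.23 ± 0.816 at 0 h and at 8.39 ± 1.77 at 2 h.

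TRINITY_DN17129_c0_g2_i14_5, of 3066 nucleotides, rose back from a low point. Its levels were 4.79, 9.90 and 7.14 CPM at 6 h and 49.1, 40.4 and 44.7 CPM at 12 h. All 12 h libraries were more than 4 times the highest 6 h library. The log2 change was 2.62 (SE 0.26, edgeR adjusted p = 0.0016), the smallest adjusted p of the step, and it was called in each fit that left out 1 library (2.39 to 2.90). Before the step this transcript had fallen, from 88.3 CPM ± 12.9 (SD, n = 3) at 0 h to 35.2 ± 2.54 at 2 h, a log2 change of -1.33 (SE 0.25, edgeR adjusted p = 0.030). Later it stood at 121 ± 27.9 at 24 h and 109 ± 25.6 at 48 h, so 6 h was its lowest time. A second rise of nearly the same length, 3060 nucleotides, was likewise lowest at 6 h and was the only other transcript called with every library left out in turn. It had 13.4, 18.9 and 10.3 CPM at 6 h and 77.6, 63.3 and 58.4 CPM at 12 h, a log2 change of 2.23 (SE 0.25, edgeR adjusted p = 0.0037). Its 0 h mean was 187 CPM ± 21.5, its 2 h mean 72.6 ± 8.73 and its 24 h mean 223 ± 47.9. In single libraries the CPM of the second was 1.31 to 2.80 times that of the first. Whether they come from 1 gene or share reads was not tested.

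The falls with the largest changes were those of TRINITY_DN18202_c0_g1_i4_2, of 1125 nucleotides, and TRINITY_DN16763_c0_g1_i2_4, of 737 nucleotides. The former had 86.1, 91.5 and 234 CPM at 6 h and 1.14, 1.91 and 0.992 CPM at 12 h, a mean 102-fold lower. The latter had 46.6, 43.5 and 172 CPM at 6 h and 1.41, 1.82 and 1.04 CPM at 12 h, a mean 61.3-fold lower. In both, 6 h replicate 3 was the highest and the 12 h libraries were close together. The log2 changes were -6.67 (SE 1.08) and -5.93 (SE 0.95), each with an edgeR adjusted p of 0.019. Neither was called by limma on voom values (adjusted p = 0.13 and 0.14), nor without 6 h replicate 3 or any one of the 12 h libraries, although with single libraries left out their changes were -7.00 to -6.03 and -6.26 to -4.98.

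The course of these 2 falls had 2 low points. TRINITY_DN18202_c0_g1_i4_2 stood at 621, 11.7 and 248 CPM in the 0 h libraries, at 6.39, 1.76 and 8.16 CPM at 2 h, and then at the high 6 h levels above. TRINITY_DN16763_c0_g1_i2_4 stood at 530, 17.1 and 239 CPM at 0 h and at 6.22, 2.83 and 3.52 CPM at 2 h. In both, the library labelled 0 h replicate 2 was closer to the 2 h levels than to the other 0 h libraries. From 0 h to 2 h, in libraries that the step does not use, both were called lower, with log2 changes of -5.76 (SE 1.02, edgeR adjusted p = 0.023) and -5.97 (SE 0.94, adjusted p = 0.014). At 24 h they had 11.0 CPM ± 4.51 (SD, n = 3) and 9.51 ± 3.94, and at 48 h 7.60 ± 2.56 and 6.50 ± 0.422, all above their 12 h means and far below 6 h. The ratio of their CPM ran from 0.622 to 2.32 over the libraries, and whether they come from 1 gene or share reads was not tested.

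**Figure D2:**
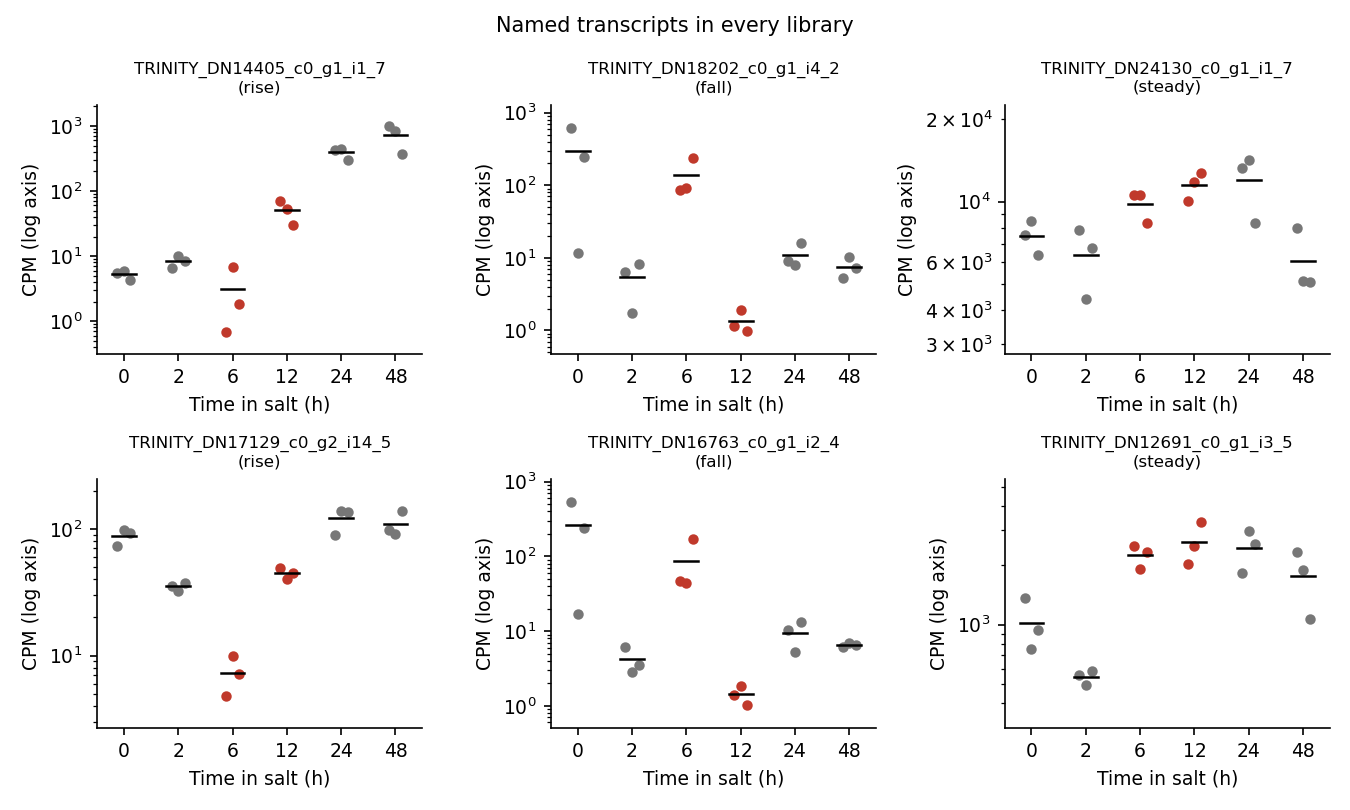
CPM (log axis) of the 6 transcripts named by ID in each of 18 libraries by time in salt; points are libraries, bars are means of 3, and the 6 h and 12 h libraries are red. The rises and falls show no overlap between 6 h and 12 h, and the 2 steady transcripts overlap.

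The 30 rises held transcripts with very low levels up to 6 h and transcripts that had been higher at 0 h, a division made after the values were seen. In 13 of them the 6 h mean was under 2 CPM. The median level of these 13 was 0.464, 0.571 and 0.519 CPM at the first 3 times, 5.36 CPM at 12 h and then 19.0 and 30.5 CPM at 24 h and 48 h. One of these, of 2010 nucleotides, had 0.403, 1.19 and 1.11 CPM at 6 h and 15.9, 34.5 and 2.03 CPM at 12 h, a log2 change of 4.28 (SE 0.78, edgeR adjusted p = 0.036). Its 12 h libraries were spread over more than 10-fold, and it reached a mean of 191 CPM at 24 h and 734 CPM at 48 h. The transcript with the largest fitted change, of 330 nucleotides, had no count in any 6 h library and 1.05, 0.773 and 1.13 CPM at 12 h. Measured against a floor of 3 counts over the 6 h group, it was at least 23.6-fold higher. It had been detected before, with means of 0.689 CPM at 0 h and 0.958 CPM at 2 h.

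A set of 9 rises, TRINITY_DN14405_c0_g1_i1_7 and TRINITY_DN17129_c0_g2_i14_5 among them, was at least 2-fold higher at 0 h than at 6 h in mean log2 CPM. Their median level went from 53.0 CPM at 0 h through 35.2 CPM at 2 h to 7.28 CPM at 6 h, and was back at 51.3 CPM by 12 h. At 24 h and 48 h it was 121 and 184 CPM. For TRINITY_DN14405_c0_g1_i1_7 the linear means, 5.23 and 3.09 CPM, were less than 2-fold apart. The other 21 rises had medians of 1.66, 2.80 and 1.31 CPM at the first 3 times and 14.1 CPM at 12 h. Of the rises, 11 had a mean over 100 CPM across the series. One of 6713 nucleotides went from 29.3, 43.5 and 17.7 CPM at 6 h to 128, 153 and 101 CPM at 12 h (log2 change 2.08, SE 0.40, edgeR adjusted p = 0.044), and then to means of 644 CPM at 24 h and 425 CPM at 48 h. One of 2529 nucleotides went from 101, 127 and 114 CPM to 262, 263 and 277 CPM (log2 change 1.23, SE 0.24, edgeR adjusted p = 0.046), with later means of 337 CPM ± 91.0 (SD, n = 3) at 24 h and 255 ± 64.4 at 48 h.

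The falls were at their highest at 0 h in 44 of 79 transcripts and at 6 h in 31. Their median level over the first 3 times was 31.8, 19.1 and 27.5 CPM, and over the last 3 it was 6.23, 8.76 and 5.98 CPM. A fall of 1630 nucleotides had 233, 221 and 186 CPM at 6 h and 24.8, 18.2 and 9.06 CPM at 12 h (log2 change -3.62, SE 0.50, edgeR adjusted p = 0.015). It had a mean of 430 CPM at 0 h, from libraries of 719, 146 and 424 CPM, and one of 53.7 CPM at 24 h. A fall of 606 nucleotides had 42.6, 33.3 and 43.1 CPM at 6 h and 3.60, 5.04 and 3.07 CPM at 12 h (log2 change -3.34, SE 0.44, edgeR adjusted p = 0.010). It was called in 4 of the 6 fits that left out a library, more than any other fall. A smaller fall, in a transcript of 2115 nucleotides, had 449, 658 and 716 CPM at 6 h and 306, 251 and 272 CPM at 12 h, a log2 change of -1.14 (SE 0.23, edgeR adjusted p = 0.0495). At 24 h it stood at 508 CPM ± 21.6 (SD, n = 3), above all its 12 h libraries.

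A dip at 2 h, as in the 2 falls with the largest changes, was seen in 15 of the 79 falls, whose 2 h mean log2 CPM was at least 1 below both 0 h and 6 h. A high 6 h level is part of what made these transcripts falls, so the count describes them and is set against no background. Over the 4 times up to 12 h the median level of the 15 was 52.0, 9.95, 46.7 and 3.64 CPM, followed by 9.53 and 7.60 CPM. One of 3435 nucleotides had means of 143.7, 28.3, 109 and 11.3 CPM over the same 4 times. In another, of 1799 nucleotides, they were 29.5, 6.92, 29.7 and 3.99 CPM. The 0 h libraries of the former had 276, 35.4 and 120 CPM, so replicate 2 was level with its highest 2 h library (35.4 CPM). Those of the latter had 47.4, 16.7 and 24.3 CPM, all above its 2 h libraries. For comparison, 2 h against 0 h was tested, in libraries outside the step. There 6 of the 79 falls were called lower, where 0.214% of all transcripts were. When 0 h replicate 2 and 2 h replicate 2 were left out, 19 of the 79 were called lower, where 5.48% of all were. None of the 79 was called higher at 2 h in either fit. Of the 30 rises, 2 were called lower at 2 h than at 0 h and 0 higher (0.502% of all transcripts were higher), namely the transcripts of 3066 and 3060 nucleotides. In the fit without the 2 libraries 5 of the 30 were called higher, where 6.96% of all were, and 3 lower.

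**Figure D3:**
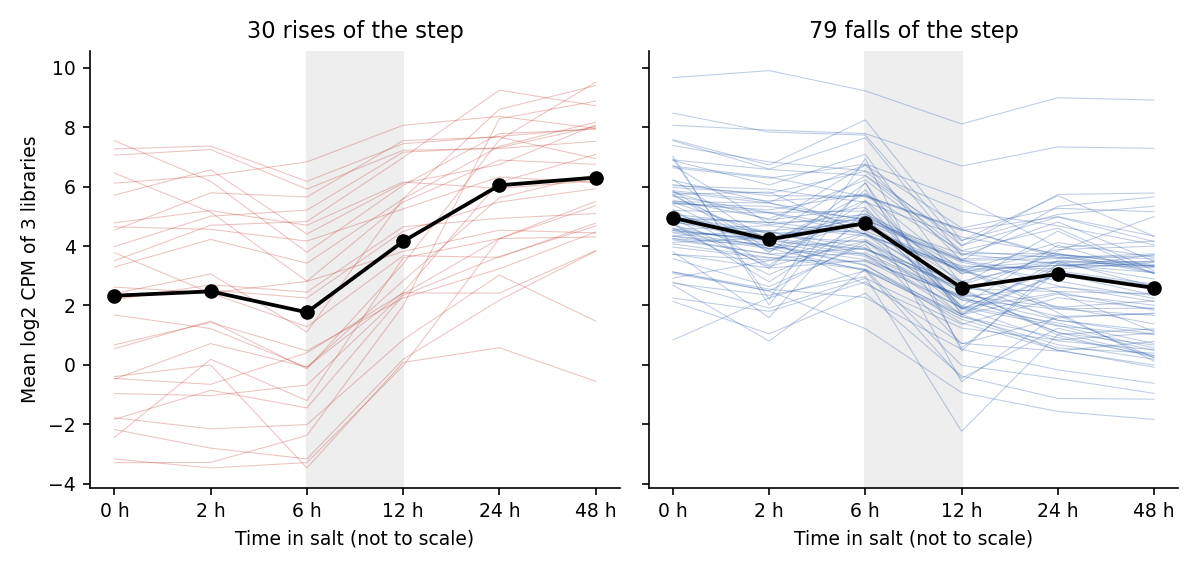
Mean log2 CPM of each of the 30 rises and 79 falls at the 6 sampling times (thin lines) with the median (black); the shaded band is the step from 6 h to 12 h and the time axis is not to scale. The median of the rises goes from 1.77 at 6 h to 4.16 at 12 h and 6.30 at 48 h, and that of the falls from 4.77 to 2.59 and stays there at 48 h.

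The called transcripts were also compared between libraries that the step does not use. In the comparison of 24 h with 2 h, 25 of the 30 rises were called higher and 0 lower, where 8.14% of all transcripts were called higher (edgeR, same threshold). Their median log2 change was 2.63, against -0.08 over all transcripts. Of the 79 falls, 47 were called lower and 0 higher, where 8.34% of all were called lower, and their median log2 change was -1.47. The fit shares 1 estimate of each transcript's spread over all libraries, so a transcript with little spread is more readily called in both comparisons. The shares of all transcripts are also not matched for level. The median level over the 18 libraries was 39.4 CPM for the rises and 18.7 CPM for the falls, against 2.64 CPM for all tested. With the 43 calls made without 6 h replicate 1, 8 of 10 rises were called higher at 24 h and 21 of 33 falls lower. In the comparisons of 24 h with 0 h and of 48 h with 2 h, which share libraries with that of 24 h with 2 h, 24 and 26 of the 30 rises were called higher, where 14.8% and 10.6% of all transcripts were. Of the 79 falls, 70 and 58 were called lower, where 12.4% and 12.7% of all were, and 1 was called higher at 48 h.

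The later levels of the called transcripts were set against the step itself. At 24 h 0 of the 30 rises and 9 of 79 falls lay on the 6 h side of the midpoint between their 6 h and 12 h means on the log2 scale. At 48 h the counts were 0 of 30 and 7 of 79. Of all transcripts higher at 12 h than at 6 h, 37.0% lay on the 6 h side at 24 h and 38.4% at 48 h. Among all those lower at 12 h the shares were 28.7% and 30.3%. The midpoint is built from the same 6 h and 12 h values that made the calls. The sets also differ in the size of the step, and a small gap is more easily crossed. The median log2 difference between 6 h and 12 h was 2.25 for the rises and -1.78 for the falls. For all transcripts higher or lower at 12 h it was 0.46 and -0.41, so the shares are no like-for-like background. At 24 h 15 of the rises stood at least 2-fold over their 12 h level, and 22 were higher at 48 h than at 24 h. By contrast 39 of the falls were higher at 24 h than at 12 h and 35 were higher at 48 h than at 12 h. None of the 30 rises had its highest time at 12 h, and 33 of the 79 falls had their lowest there. For levels past that of 12 h and for highest and lowest times, the counts describe the calls and are set against no background. From 24 h to 48 h none of the rises was called (median log2 change 0.52) and 1 of the falls was called lower (median -0.45), where edgeR called 0.144% of all transcripts higher and 0.292% lower.

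**Figure D4:**
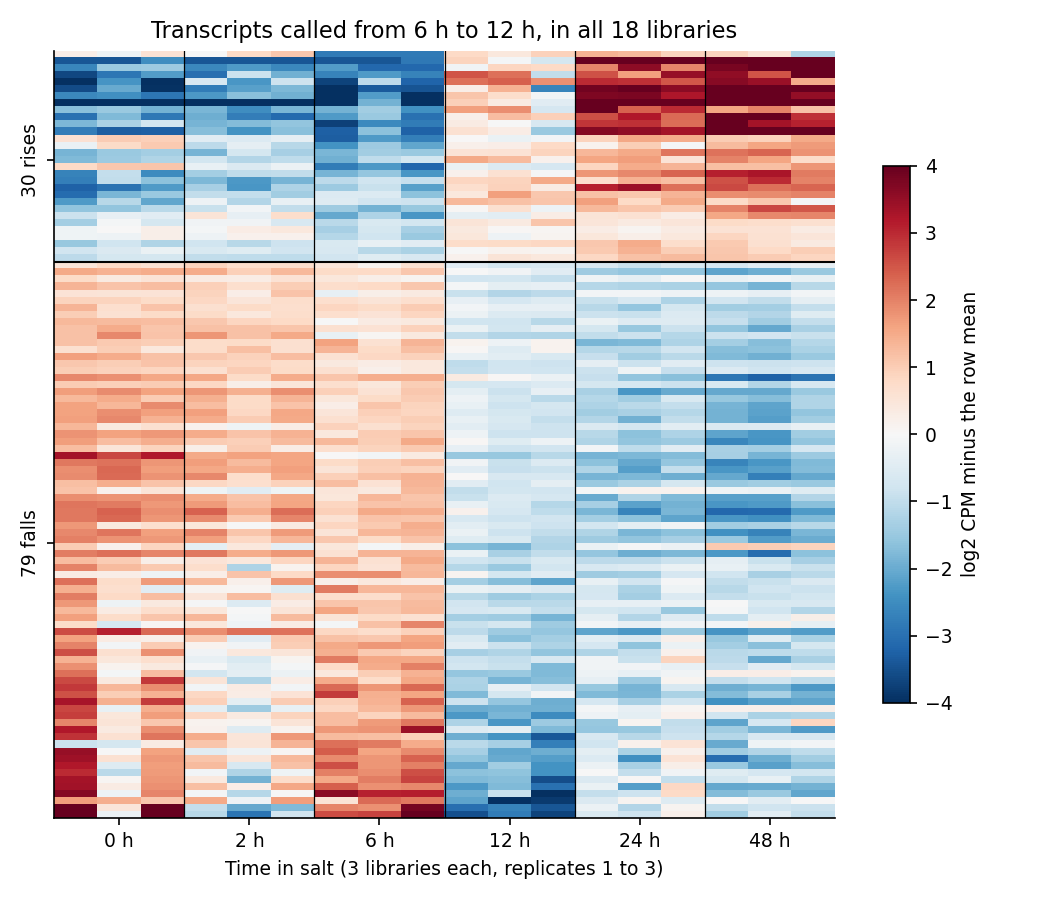
Log2 CPM of the 109 called transcripts (rows, ordered by log2 change) in all 18 libraries (columns, 3 per time), each row minus its mean; colours end at 4 in either direction. Most rises are low to 6 h and highest at 24 h and 48 h, and most falls are high to 6 h and low from 12 h. Several of the lowest rows, but not all, show the dip at 2 h, which the library labelled 0 h replicate 2 shares in them.

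Long and well covered transcripts made up most of the calls. The median length was 2070 nucleotides among the 109 and 1009 among all tested, and 98 of the 109 (89.9%) had at least 1000 nucleotides against 50.3% of all tested. The shares were close among transcripts of higher level. With a mean of at least 10 CPM, 77 of 83 called transcripts (92.8%) and 93.3% of all had that length. The called share was 0.00707% up to 1 CPM (1 of 14146), 0.15% from 1 to 10 CPM, 0.543% from 10 to 100 CPM and 0.756% over 100 CPM. Above 100 CPM there were 11 rises and 5 falls, and from 10 to 100 CPM 12 rises and 55 falls. The class is set by the mean over all 18 libraries, so a rise can enter the highest class through its 24 h and 48 h levels, as that of 2010 nucleotides did.

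The ID of each transcript ends in a digit from 1 to 9, and the digits of rises and falls differed. Digits 5 to 7 stood on 25 of the 30 rises and 4 of the 79 falls, and on 31.0% of all transcripts tested. Digits 1 to 4 stood on 61 of the falls and 2 of the rises, and on 46.4% of all. Digit 4 alone held these 2 rises and 4 of the falls. Its median log2 change over all transcripts was 0.35, against -0.25, -0.32 and -0.23 for digits 1 to 3. Digits 8 and 9 stood on 3 of the rises and 14 of the falls, and on 22.6% of all. Transcripts with digit 1 were highest most often in a 0 h library (56.0%), those with digit 2 in a 6 h library (48.8%), those with digit 6 in a 24 h library (45.2%) and those with digit 7 in a 48 h library (60.0%). For digits 3, 4 and 5 it was 0 h (47.4%), 12 h (31.4%) and 24 h (30.8%), and for 8 and 9 it was 48 h (32.6%) and 2 h (38.3%). What the digit stands for is not given in the sources used here, and its part in the calls was not tested.

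Equality was tested as well, since a transcript that was not called need not have stayed the same. With 2 one-sided limma tests on voom log2 CPM, 8078 transcripts (17.9% of those tested) were shown to be equal within 2-fold at a Benjamini-Hochberg adjusted p under 0.05. These held 42.2% of the counts in the 6 libraries, while the 109 called transcripts held 0.394%. Their median change was 0.15 on the log2 scale in either direction, 95% of them lay within 0.39, and none exceeded 0.61. In 1487 of the 8078 the 6 h and 12 h libraries did not overlap, where 22.8% of all those tested had no overlap. Steady here therefore means a change shown to be under 2-fold, not the absence of a change. The other 37035 transcripts (81.9%) were neither called nor shown to be equal. For 28637 of these the 95% interval held both no change and a 2-fold change. Without 6 h replicate 1, 6411 transcripts were shown to be equal, and without 6 h replicate 2, 5228 were. With the margin set at 1.5-fold none was by limma, on voom values or on log2(FPKM + 1), while 4704 and 6592 passed at an unadjusted p under 0.05.

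What could be shown to be steady depended on level. Equality within 2-fold was shown for none of the 14146 transcripts up to 1 CPM, where the 95% interval reached a median of 2.1 on either side of the estimate on the log2 scale. It was shown for 6.96% of those from 1 to 10 CPM (half-width 1.1), for 49.0% of those from 10 to 100 CPM (half-width 0.54) and for 41.5% of those over 100 CPM (half-width 0.59). In the last 2 classes more transcripts were shown to be equal than were called, 6041 against 67 and 879 against 16. Still more in these classes were neither, 6222 (50.5%) and 1221 (57.7%). The median length of the steady transcripts was 2256 nucleotides and that of the unresolved ones 741.

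**Figure D5:**
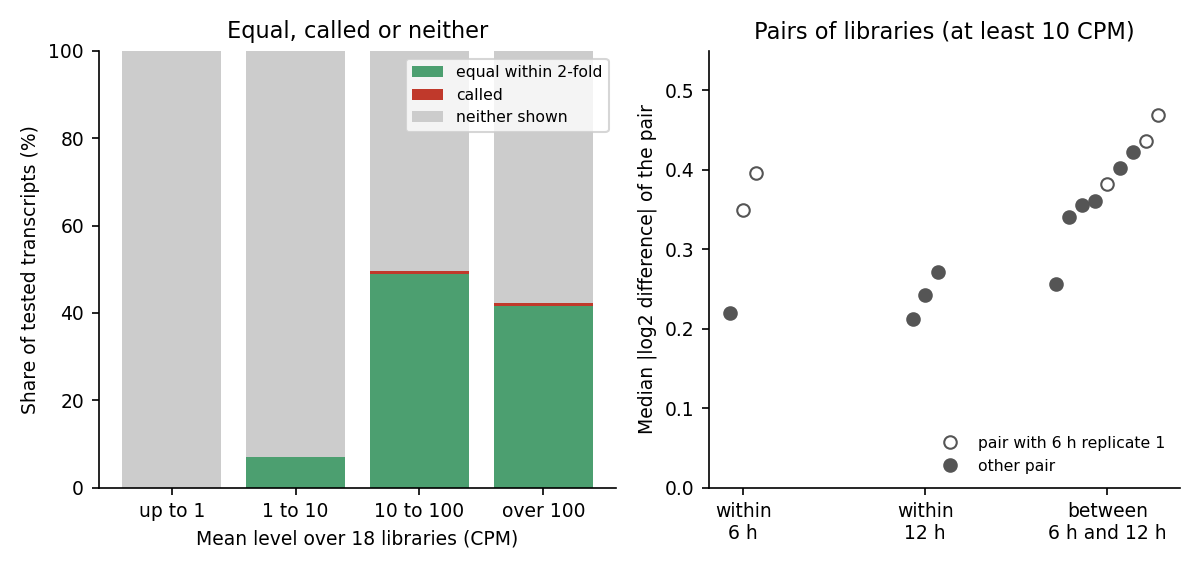
Left, share of tested transcripts in 4 classes of mean CPM that were shown to be equal within 2-fold, called, or neither; the equal share is 49.0% from 10 to 100 CPM and 0 up to 1 CPM. Right, median absolute log2 difference of each of 15 pairs of libraries over transcripts with a mean of at least 10 CPM; pairs with 6 h replicate 1 (open) reach 0.396 within 6 h, and other pairs between the times begin at 0.257.

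The 2 steady transcripts with the highest CPM were TRINITY_DN24130_c0_g1_i1_7, of 729 nucleotides, and TRINITY_DN12691_c0_g1_i3_5, of 843 nucleotides. The former had 10553, 10527 and 8314 CPM at 6 h and 10082, 11749 and 12733 CPM at 12 h. The latter had 2513, 1922 and 2335 CPM at 6 h and 2035, 2498 and 3314 CPM at 12 h. In both, the groups overlapped. Their log2 changes by limma were 0.24 (95% interval -0.29 to 0.76, adjusted p of equality 0.025) and 0.19 (95% interval -0.40 to 0.79, adjusted p of equality 0.034). Steady in the step did not mean steady in the course. TRINITY_DN12691_c0_g1_i3_5 stood at 545 CPM ± 44.7 (SD, n = 3) at 2 h and 2450 ± 574 at 24 h, a log2 change of 2.17 (SE 0.32, edgeR adjusted p = 0.00029), and had reached 2256 ± 303 by 6 h. Of the 8078 steady transcripts, 287 were called higher and 428 lower at 24 h than at 2 h (8.85% in all), against 16.5% of all transcripts tested.

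The lists of most abundant transcripts overlapped for the most part. Of the 100 transcripts with the highest mean CPM at 6 h, 73 were also among the 100 highest at 12 h. Among the 127 transcripts in either list, 1 was called, the fall of 2115 nucleotides, and 23 were shown to be equal within 2-fold. Of all transcripts tested 0.241% were called and 17.9% were equal, and of those over 100 CPM 0.756% and 41.5%. The changes of the 127 ran from -1.63 to 1.95 on the log2 scale with a median of 0.21, and 84 of them were higher at 12 h. In each library the 100 most abundant transcripts held 13.5%, 13.1% and 12.7% of counts at 6 h and 14.6%, 14.7% and 15.4% at 12 h. The groups did not overlap and the mean difference was 1.8 percentage points (p = 0.1 in a two-sided exact permutation test, which cannot go lower with groups of 3). Few transcripts were seen at one time alone with at least 10 counts in each of its libraries. At these depths 5 transcripts had no count at 6 h and at least 10 counts in each 12 h library. In the other direction, 8 had no count at 12 h and at least 10 in each 6 h library. Without that minimum, 2418 transcripts had no count at 6 h and 2306 had none at 12 h. Some of them may have had no count at both times. Of the rises called, 1 had no count at 6 h, and of the falls called 0 had no count at 12 h. At most 1 of the 5 and none of the 8 was therefore called.

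The step was set against the one from 24 h to 48 h, which lasted longer and spanned a whole day. Length of step and hour of the day therefore enter the difference and cannot be told apart from time in salt. The change from 6 h to 12 h minus the change from 24 h to 48 h, which share no library, was called for 3 transcripts (0.00663%) by edgeR, while 4887 passed at an unadjusted p under 0.05 and the DESeq2 test called 626. With single libraries left out there were 0 to 19. The 3 were TRINITY_DN17129_c0_g2_i14_5, a fall of 1550 nucleotides and a transcript of 1521 nucleotides that was not called in the step. The first changed by 2.62 in the step and by -0.15 (SE 0.25) from 24 h to 48 h on the log2 scale, a difference of 2.77 (edgeR adjusted p = 0.021). The fall of 1550 nucleotides had 22, 15.1 and 19 CPM at 6 h and 5.05, 4.36 and 6.81 CPM at 12 h, and went from 14.1 CPM ± 1.13 (SD, n = 3) at 24 h to 31.8 ± 1.95 at 48 h, a difference of -2.96 (edgeR adjusted p = 0.021). The transcript of 1521 nucleotides was highest at 12 h. It had 264, 137 and 209 CPM at 6 h and 392.4, 312 and 432 CPM at 12 h, then 154 ± 42.6 (SD, n = 3) at 24 h and 52.5 ± 3.77 at 48 h, a difference of 2.45 (edgeR adjusted p = 0.043).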

How the data were processed

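Leaf RNA of 18 libraries (6 times, 3 each) was compared; groups and replicate numbers come from the sample titles. The authors' deposited estimated counts, 89.6% of them not whole, were rounded to whole numbers; the authors' deposited FPKM values served for 2 alternatives and, divided into the counts, gave transcript lengths (whole within 0.1 nucleotides for 99.99%). The feature IDs are of the form that the assembler Trinity writes; for the aligner and counter, the sources used here name none. The deposited annotation columns were not used, and 0 per-sample columns were left unused. Library totals were 17933939 to 24731213.

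Transcripts were filtered with filterByExpr, scaled by TMM and fitted in 1 model of 6 groups with edgeR 4.0.16 (R 4.3.3); the biological coefficient of variation was 0.494. An SE is the change over the square root of F. Equality used limma 3.58.1 on voom values, and log2 CPM a prior count of 2. DESeq2 1.42.0 was an alternative, as were other scalings, filters, thresholds and margins, a replicate block and each library left out. Summaries used scipy 1.17.1 and pandas 2.3.3 under Python 3.11.15. The fits were tested on simulated counts. Replicate pairs at 6 h and 12 h differed beyond sampling noise (lowest chi-square 25.1 per degree of freedom) and were counted singly.

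The members, lists and tests were chosen with earlier results of these data known. IDs are printed for the 2 largest rises and falls among calls without overlap whose higher group had 10 CPM or more in each library, and for the 2 most abundant steady transcripts; others are given by length. The contrasts of 2 h with 0 h and 48 h with 24 h, the groups among the calls and the fit without 2 libraries outside the step were added after seeing the data. A planned sum over transcripts of 1 assembly gene changed nothing, since each of the 53545 was the sole transcript of its assembly gene. That gene was taken as the ID without isoform number but with its final digit. Whether IDs recur under different final digits was not tested.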

Additional observations from a re-analysis of the deposited data

Results flagged for a closer look

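A test of the difference between 2 steps of unlike length marked 3 transcripts out of 45222. In these the change from 6 h to 12 h was unlike that from 24 h to 48 h. By edgeR at an unadjusted p under 0.05 there were 4887 (10.8%), and the DESeq2 test called 626.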

How the results depend on the processing

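Calls of the step (109) numbered 112 with DESeq2 size factors and 107 with library totals, so these scalings moved them little, and 118 in a fit of only the 6 libraries. They moved to 71 without a filter on low counts, 316 with at least 10 CPM in 3 libraries, 56 at a log2 change of at least 2, 420 with limma on log2(FPKM + 1), 1236 with the DESeq2 test, 510 when 0 h replicate 2 and 2 h replicate 2 were both left out (chosen after seeing the data), and 2 to 68 with 1 library left out. Transcripts equal within 2-fold (8078) numbered 0 within 1.5-fold, 16675 with limma on log2(FPKM + 1) and 5228 to 6411 with 1 library left out. Calls of 24 h against 2 h (7452) were 4804 to 8059 with 1 library left out. Transcripts whose step differed from that of 24 h to 48 h (3) numbered 626 with the DESeq2 test, 141 with those same 2 libraries left out, and 0 to 19 with 1 library left out; where edgeR gave 0, 4132 to 4857 passed at an unadjusted p under 0.05. The difference in the share of the 100 most abundant transcripts was 1.54 to 2.01 points with 1 library left out. Apart from the construction of fewer transcripts, fewer libraries or another threshold, the cause of these shifts was not tested.

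With the replicate number as a block, 84 transcripts were called in the step, 7507 were equal within 2-fold, 6773 were called at 24 h against 2 h, and 1 differed between the steps. Deviations of same-numbered 6 h and 12 h libraries correlated at -0.36, -0.07 and -0.11, and none correlated best with its own number. No pairing by number was thus seen in the levels. With 3 libraries a group this cannot tell whether libraries of 1 number share a plant or a batch. Of the transcripts up to 1 CPM, 0 were shown to be steady and 1 was called; their median biological coefficient of variation was 0.73, and depth and spread cannot be told apart there.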
